A study of Mus musculus with 7 samples.

Results

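The genes described here code for the chains of 3 protein families of the matrix and its receptors: collagens, laminins and integrins. They were taken by name from the platform's probe annotation, as symbols of the form Col, number, a, number, as Lama, Lamb or Lamc with a number, and as all symbols starting with Itga or Itgb. The rule found 72 genes on 121 probe sets, of 12393 genes on 20380 probe sets with a single symbol: 36 collagen genes, 10 laminin genes and 26 integrin-named genes, of which 21 code for integrin chains and 5 for other proteins (Itgb1bp1, Itgb1bp2, Itgb3bp, Itgbl1 and Itgb2l). Each gene is given on its probe set with the highest mean in WT hearts, and Itgb1 on all of its probe sets. The 3 KLF15-null and 4 WT samples were hearts of C57/BL6 mice, labelled male, at an age of 3 to 4 months and after an 18 h fast, and RNA of each was hybridized to an Affymetrix 3' expression array. KLF15-null mice lack Krüppel-like factor 15, a zinc-finger transcription factor. The sources used here do not give how the allele was made or whether WT mice were littermates. Nothing in the labels says that the numbered samples were separate animals, so the p-values measure the spread between these samples. No fed mice were among them.

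Values are log2 signals, and all differences are KLF15-null minus WT on that scale. Array medians lay between 6.22 and 6.33. At the bright end the arrays did not match: the 98th percentile was 11.86 to 12.02 in KLF15-null and 11.43 to 11.74 in WT hearts. Klf15 itself averaged 6.33 ± 0.17 in KLF15-null (SD, n = 3) and 8.87 ± 0.19 in WT hearts (SD, n = 4), but which exons were removed is not given, so its single probe set may check nothing. All 7 arrays went against their label of male: Xist, expressed from the inactive X chromosome, reached the 91.4th percentile of all probe sets by its mean, and 9 probe sets specific to genes of the Y chromosome reached at most the 27.3rd. The defining cardiomyocyte markers were present in both groups: the 12 marker probe sets had a mean log2 signal of 13.39 to 13.56 in KLF15-null and of 13.39 to 13.60 in WT hearts; 1 passed the threshold upward (Myl3, 0.24), 1 downward (Ttn, -0.38) and 10 did not pass. The shares over all genes tested were 25.3% higher and 21.2% lower. In whole hearts, fewer cells of a type and less RNA per cell cannot be told apart.

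Collagens are trimers that form the fibrils between heart cells and, as type IV, the mesh of the basement membrane that wraps cardiomyocytes and capillaries. Laminins are trimers of an α, a β and a γ chain that form the other basement membrane mesh. Integrins are receptors of an α and a β chain in the cell membrane. They hold cells to collagen, laminin, fibronectin and vitronectin outside and connect to the actin cytoskeleton inside, and in cardiomyocytes they sit at the costameres. The β1 chain pairs with many α chains and is part of many integrins that bind laminin, collagen or fibronectin. The αv chain also pairs with other β chains, and β2 is a leukocyte chain. Receptors outside the integrins also bind laminin and collagen.

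The 250 bases upstream of the annotated start of Itgb1 are shown, since this gene had the largest difference of all chains. They are RefSeq sequence of GRCm38.p6, plus strand, chr8:128685404-128685653, written 5′ to 3′. Capitals mark CACCC, the short element that Krüppel-like factors are known to bind, which was searched with its reverse complement GGGTG.
Itgb1: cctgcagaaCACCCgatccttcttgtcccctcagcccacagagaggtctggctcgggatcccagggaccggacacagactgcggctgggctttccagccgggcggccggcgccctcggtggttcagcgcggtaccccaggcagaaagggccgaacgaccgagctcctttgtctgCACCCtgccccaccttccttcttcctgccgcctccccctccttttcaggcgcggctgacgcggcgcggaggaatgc
The element occurs in 2 places upstream of Itgb1. It occurs on either strand in 52.0% of all 32851 RefSeq promoter windows of this length and in 64.3% of the 56 windows of the 50 genes described here that have one. A match of 5 letters is a description of the window, and binding was not measured.

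Probe sets were tested where their mean over the 7 arrays reached the 40th percentile of all probe sets (log2 5.74), and an adjusted p under 0.05 in limma counts as a call. Of the 72 genes 50 were bright enough, and of these 10 were higher in KLF15-null hearts, 9 lower and 31 in neither direction. Of the 73 probe sets of these genes that were tested 15 were higher, 15 lower and 43 in neither direction, against 26.8% higher, 23.8% lower and 50.6% called over all probe sets. Over all 8400 genes tested on their WT-brightest probe set 25.3% were higher, 21.2% lower and 46.5% called in either direction, so a called share near these values is not particular to a family. The other 22 genes lay below the filter level, with differences between -0.29 and 0.41. Without a filter 3 of them passed the threshold, Col9a2 at 0.21, Itgb3bp at 0.41 and Lamc3 at -0.29, on signals that stayed below the filter level in both groups. Groups without overlap were common: of all 12393 genes, 2527 had every KLF15-null value above WT and 2229 every value below. Among the 72 genes described here these were 13 and 9, so a lack of overlap is not particular to them.

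**Figure D1:**
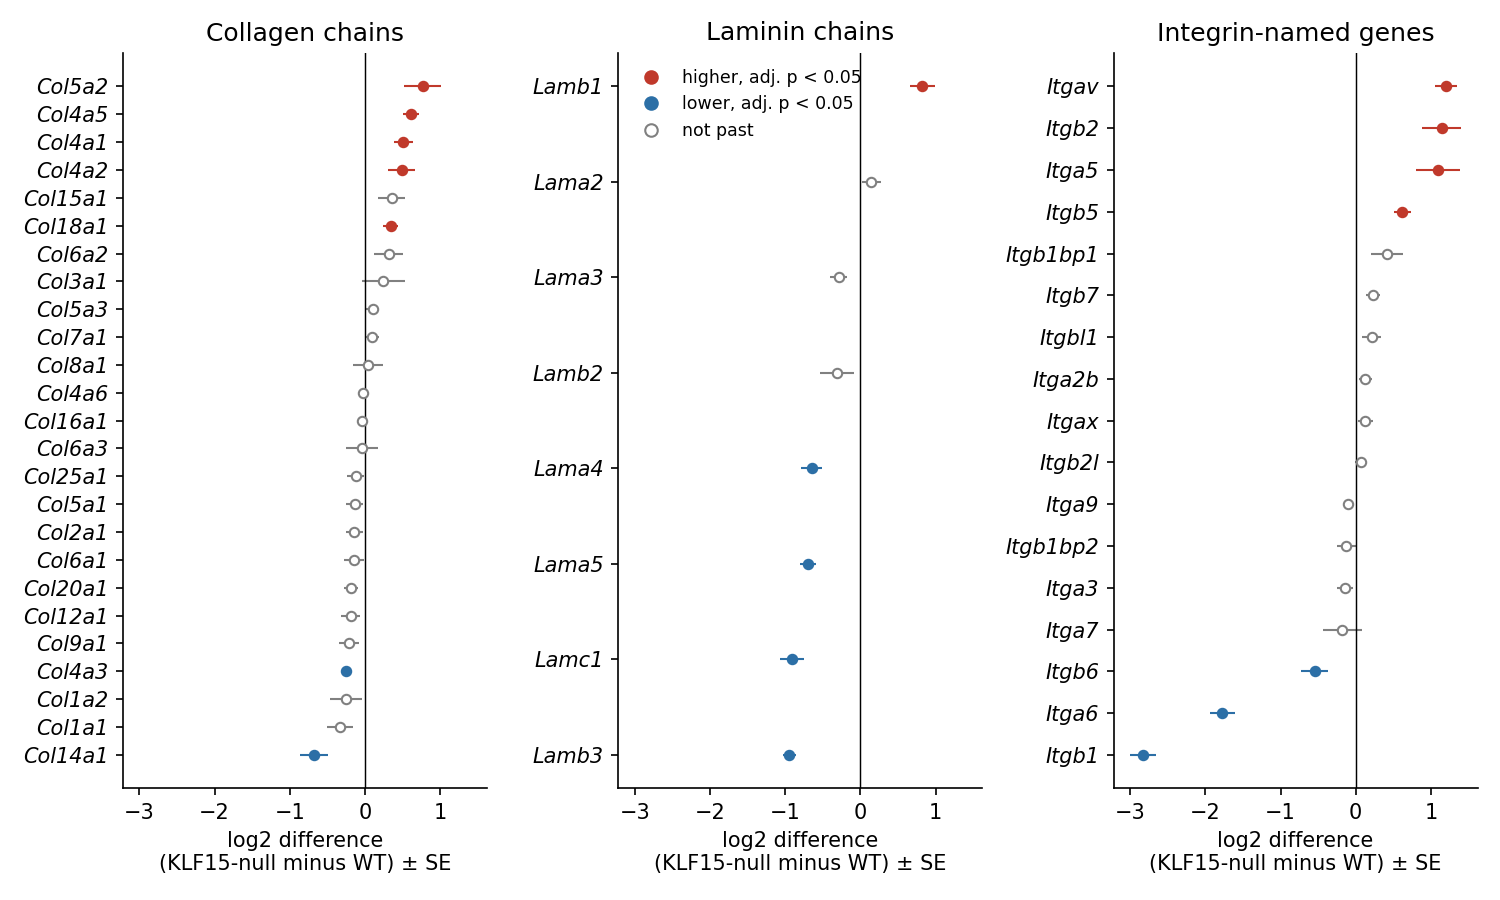
Difference in log2 signal (KLF15-null minus WT, horizontal axis) with its SE for the 50 genes bright enough to be tested, on the probe set brightest in WT, in 3 panels by family. Filled points passed an adjusted p of 0.05, red for higher and blue for lower, and Itgb1 at -2.83 lies farthest from 0.

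The β1 integrin gene Itgb1 had the largest difference of the 72 genes. On its brightest probe set, 1452545_a_at, KLF15-null hearts 1 to 3 gave 7.52, 6.94 and 6.95, and WT hearts 1 to 4 gave 9.77, 9.80, 10.22 and 10.06. The groups were more than 2 log2 units apart, and the mean fell by 2.83 on the log2 scale (SE 0.17, adjusted p = 2.73e-06), a 7.09-fold lower signal. On 1426918_at the values were 7.77, 5.72 and 7.10 in KLF15-null hearts, against 9.0, 9.30, 9.50 and 9.29 in WT hearts. The difference was -2.41 (SE 0.39, adjusted p = 0.000631), with a wide spread in the KLF15-null group (SD 1.04, n = 3), where heart 2 was the lowest. On the cross-hybridizing type of probe set 1427771_x_at KLF15-null hearts gave 6.47, 5.46 and 5.75, against 8.56, 8.71, 9.01 and 8.92 in WT hearts, a difference of -2.91 (SE 0.22, adjusted p = 8.14e-06). The 3 bright probe sets thus separated every KLF15-null from every WT array. Such separation was common: over all 22626 probe sets, 4607 had every KLF15-null value above WT and 4423 every value below. All 3 bright probe sets of Itgb1 were lower by more than 2-fold, which 6.71% of the 13576 probe sets tested were.

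The other 3 Itgb1 probe sets were dim in both genotypes. Probe set 1438119_at averaged 4.16 ± 0.17 in KLF15-null (SD, n = 3) and 4.07 ± 0.19 in WT hearts (SD, n = 4). Probe set 1426920_x_at averaged 3.70 ± 0.01 in KLF15-null and 3.61 ± 0.10 in WT hearts. Probe set 1426919_at averaged 3.60 ± 0.05 in KLF15-null and 3.54 ± 0.08 in WT hearts. In WT hearts they lay at the 7.29th, 0.946th and 0.438th percentile of all probe sets, so no level of Itgb1 can be read from them. The 2 other bright probe sets did not depart from the brightest by a test of the difference (-0.41, SE 0.31, adjusted p = 0.265 for 1426918_at, and 0.08, SE 0.13, adjusted p = 0.606 for 1427771_x_at). The call held on each bright probe set under all 15 alternatives run for them, with differences from -3.20 to -1.84, and the mean over all 6 probe sets, dim ones included, differed by -1.32.

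**Figure D2:**
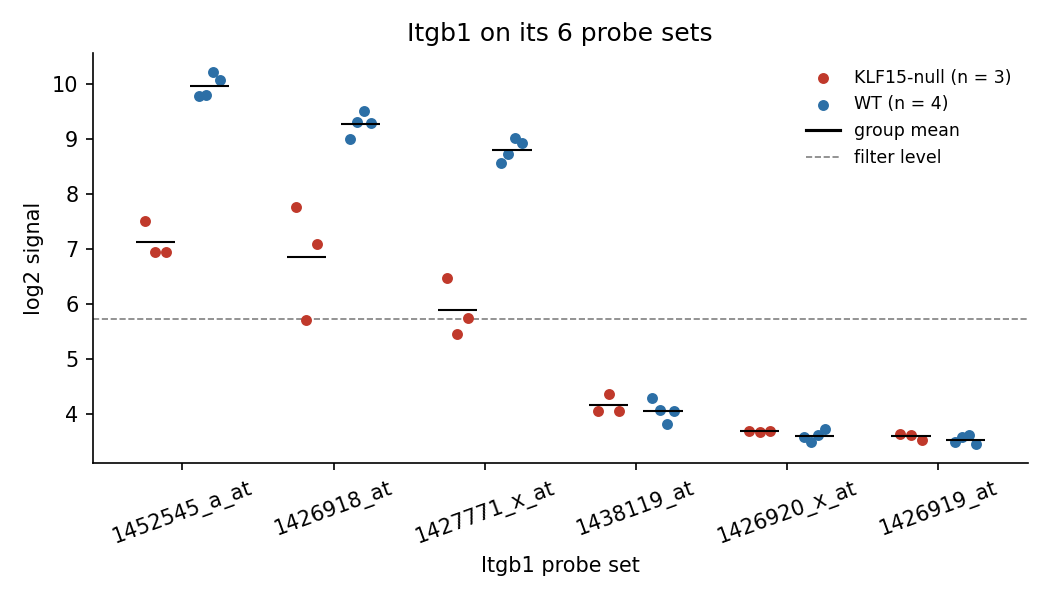
Log2 signal (vertical axis) of Itgb1 on its 6 probe sets in the 3 KLF15-null (red) and 4 WT (blue) hearts, with group means as black lines and the filter level of 5.74 dashed. On the 3 bright probe sets all KLF15-null points lie below all WT points, and on the 3 dim ones both groups lie below the filter level.

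Of the 26 integrin-named genes 17 were bright enough, with 4 higher, 3 lower and 10 not past the threshold, against 25.3% higher and 21.2% lower over all genes. Of the 14 α chains 8 were bright enough, with 2 higher, 1 lower and 5 that did not pass. Itga6, the α6 chain of laminin receptors, had 6.79, 6.84 and 6.51 in KLF15-null hearts, against 8.61, 8.24, 8.87 and 8.23 in WT hearts. It fell by 1.77 on the log2 scale (SE 0.17, adjusted p = 2.94e-05), and no values overlapped. Its second probe set differed by -0.24, not past the threshold (adjusted p = 0.162), and the 2 probe sets differed from each other by -1.53 (SE 0.13, adjusted p = 1.01e-05).

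Itgav, the αv chain of vitronectin and fibronectin receptors, had 9.70, 10.29 and 10.04 in KLF15-null hearts, against 8.78, 8.77, 8.92 and 8.75 in WT hearts. Every KLF15-null value was above every WT value, and the signal rose 2.30-fold (difference 1.20, SE 0.14, adjusted p = 0.000103). Averaged with its dimmer probe sets it differed by 0.34 and stayed past the threshold. Itga5, the fibronectin receptor chain, had 8.92, 7.39 and 7.78 in KLF15-null hearts, against 6.98, 7.12, 6.89 and 6.77 in WT hearts. The groups did not overlap on this probe set and the difference was 1.09 (SE 0.30, adjusted p = 0.0123), with KLF15-null heart 1 far above the others of its group. Without that heart it was 0.65 (adjusted p = 0.00489). The gene-specific probe set of Itga5 differed by -0.16 (adjusted p = 0.218), and the 2 probe sets differed from each other by 1.25 (SE 0.31, adjusted p = 0.00487), so the direction for Itga5 depends on the probe set.

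Itga7, the laminin receptor chain of adult cardiomyocytes, had 8.98, 7.63 and 8.24 in KLF15-null hearts, against 8.44, 8.49, 8.57 and 8.35 in WT hearts. KLF15-null hearts lay on both sides of the WT values, and the difference was -0.18 (SE 0.26, adjusted p = 0.587). Without KLF15-null heart 1 it was -0.53 and passed the threshold (adjusted p = 0.0268), and without KLF15-null heart 2 it was 0.15. Itga3, a laminin receptor chain, had 6.97, 6.74 and 6.96 in KLF15-null hearts, against 6.96, 6.87, 7.04 and 7.25 in WT hearts, which overlap (-0.14, adjusted p = 0.316). Of its 2 gene-specific probe sets, 1460305_at differed by -0.15 (adjusted p = 0.194) and 1455158_at by 0.22 (adjusted p = 0.0468). Itga9 had 6.08, 6.12 and 6.17 in KLF15-null hearts, against 6.25, 6.17, 6.17 and 6.30 in WT hearts (-0.10, adjusted p = 0.306). Itga2b, the platelet chain, differed by 0.13 (adjusted p = 0.259). Itga2, Itga4, Itga8, Itgae, Itgal and Itgam lay below the filter level.

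Whether partners changed unequally was tested on the difference between the 2 chains within each array, by an exact two-sided permutation of the 35 splits of the arrays, adjusted over the 17 pairs measured. The smallest p this design allows is 0.0286, and 12 pairs reached it (adjusted p = 0.0405 for each). Each of the 6 measured α partners of β1 was among them. No share over pairs of other genes was taken to set beside 12 of 17. By limma on per-array differences, 67.4% of 4044 pairs of probe sets of 1 gene were unequal, so unequal differences were common in the whole table. Relative to Itgb1 the shift was 4.03 for Itgav, 3.92 for Itga5, 2.73 for Itga9, 2.69 for Itga3, 2.65 for Itga7 and 1.05 for Itga6. With 1422445_at, the Itga6 probe set with the highest mean over all 7 hearts, the shift was 2.58. With gene-specific probe sets Itga6 stayed on 1422444_at, its brightest in WT, and Itgb1 was read on 1426918_at. The Itga6 shift was then 0.64 and no longer passed (exact permutation p = 0.343, adjusted p = 0.389). Since all 6 are set against the same Itgb1 values, they are not 6 separate results. A shift within an array shows unequal change only. When the probe sets of each gene were averaged, 0 of 16 pairs passed after adjustment, with 8 at the smallest p.

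Of the 7 β chains 5 were bright enough, with 2 higher, 2 lower and 1 not past the threshold, too few to set against the share over all genes. Itgb2, the chain shared by the leukocyte integrins, had 8.03, 7.35 and 6.75 in KLF15-null hearts, against 6.07, 6.20, 6.10 and 6.58 in WT hearts. No values overlapped and the difference was 1.14 (SE 0.26, adjusted p = 0.00453). Of the α partners of β2, Itgal and Itgam lay below the filter level, and Itgax had 6.55, 6.42 and 6.29 in KLF15-null hearts, against 6.35, 6.38, 6.08 and 6.35 in WT hearts (0.13, adjusted p = 0.328). Itgax and Itgb2 changed unequally (-1.01, exact permutation p = 0.0286, adjusted p = 0.0405). Beside Itgb2, 6 of 10 common leukocyte markers were called higher and none lower, 2 did not pass and 2 lay below the filter level. Over all genes tested 25.3% were higher. Of the 10 markers, 8 had every KLF15-null value above WT and 2 had every value below. The mean log2 signal of the 10 was 6.80 to 7.33 in KLF15-null and 6.19 to 6.56 in WT hearts. The order within the KLF15-null group was the same for that mean (7.33, 7.18 and 6.80) as for Itgb2. Ptprc, the pan-leukocyte antigen CD45, rose by 1.72 and Tyrobp, a myeloid signalling adaptor, by 1.66. Their part in the Itgb2 result was not tested.

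Itgb5, the β5 partner of αv, had 10.89, 10.71 and 10.99 in KLF15-null hearts, against 10.34, 10.16, 10.18 and 10.30 in WT hearts on its brightest probe set, an _x_at one. The groups did not overlap there (0.62, SE 0.11, adjusted p = 0.00127), and a second _x_at probe set differed by 1.53 (adjusted p = 4.44e-05). The gene-specific probe set 1417534_at went the other way, at -0.55 (adjusted p = 0.0188), and 1417533_a_at differed by -0.44 (adjusted p = 0.199). All 3 departed from the brightest by the test of the difference, so no direction can be given for Itgb5 as a gene. Its shift against Itgav on the brightest probe sets (0.58, exact permutation p = 0.0286, adjusted p = 0.0405) rests on that choice, and was 1.76 with gene-specific probe sets. After quantile normalization the brightest was no longer past the threshold (0.27, adjusted p = 0.0703). Itgb6, an epithelial chain, differed by -0.54 (adjusted p = 0.0315) with a KLF15-null mean of 5.66, below the filter level. That call was lost after median centring (-0.45, adjusted p = 0.0573) and without WT heart 1 or 3 or KLF15-null heart 1 or 3. Itgb7, a lymphocyte chain, differed by 0.23 (adjusted p = 0.0621), with a WT mean of 5.70, below the filter level. It passed the threshold after median centring, quantile and cyclic loess normalization (0.27 to 0.32). Itgb3 and Itgb4 lay below the filter level. Among the integrin-named genes that are not integrin chains, Itgb1bp2, which codes for melusin, a muscle protein that binds the β1 tail, differed by -0.12 (adjusted p = 0.462), and by -0.46 after quantile normalization (adjusted p = 0.00472). Itgb1bp1 differed by 0.42 (adjusted p = 0.129), and by 0.69 without KLF15-null heart 2 (adjusted p = 0.00344).

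In the laminin family 8 of 10 genes were bright enough, with 4 lower, 1 higher and 3 that did not pass, against 21.2% lower and 25.3% higher over all genes. Their median difference was -0.48, against 0.01 over all genes tested. Lamc1, the γ1 chain of most laminins, had 8.17, 7.65 and 7.57 in KLF15-null hearts, against 8.56, 8.56, 8.94 and 8.77 in WT hearts. All KLF15-null values were lower, by 0.91 in the mean (difference -0.91, SE 0.16, adjusted p = 0.00129). Lama5, the α5 chain of mature endothelial basement membrane, had 9.11, 9.10 and 9.14 in KLF15-null hearts, against 9.77, 9.69, 9.84 and 9.96 in WT hearts. The KLF15-null values lay close together and all below WT (-0.70, SE 0.11, adjusted p = 0.000433), and the second probe set differed by -0.84 (adjusted p = 0.00104).

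Lama4, the α4 chain of endothelial and muscle laminins, had 8.04, 7.54 and 8.03 in KLF15-null hearts, against 8.40, 8.61, 8.51 and 8.54 in WT hearts. The groups did not overlap (-0.65, SE 0.14, adjusted p = 0.00326). Lama2, the α2 chain that anchors cardiomyocytes to their basement membrane, had 9.13, 9.22 and 9.11 in KLF15-null hearts, against 8.78, 8.94, 9.25 and 9.08 in WT hearts. Those values overlapped (0.14, SE 0.13, adjusted p = 0.372), and Lama2 and Lamc1 changed unequally, by 1.05 (exact permutation p = 0.0286, adjusted p = 0.0405). Lamb2 and Lamc1 did so by 0.60, with the same p. That call was lost after quantile (0.51, exact permutation p = 0.0571, adjusted p = 0.0747) and cyclic loess normalization (0.52, exact permutation p = 0.0857, adjusted p = 0.112). The shifts of Lama4 (0.26, exact permutation p = 0.286, adjusted p = 0.324) and Lama5 (0.21, exact permutation p = 0.257, adjusted p = 0.312) against Lamc1 did not pass the threshold. Beside the falls of Lama4 and Lama5, 4 of 12 endothelial markers were lower, none higher and 8 did not pass, against 21.2% lower over all genes. The median difference of the 12 was -0.06, and in 7 of them the groups overlapped. The mean log2 signal of the 12 was 7.76 to 8.36 in KLF15-null and 8.42 to 8.68 in WT hearts. Pecam1 (CD31) stood at -2.24, Emcn (endomucin) at -1.44, Tie1 at -0.77 and Flt1 at -0.63. Their part in the laminin result was not tested.

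Lamb1, the β1 laminin chain, gave opposite answers on its probe sets. On its brightest, 1424114_s_at, KLF15-null hearts had 8.96, 9.58 and 9.13, against 8.32, 8.33, 8.71 and 8.25 in WT hearts (0.82, SE 0.17, adjusted p = 0.0027). On 1424113_at the difference was 0.47 (adjusted p = 0.00596), with a WT mean of 5.64, below the filter level. On 1451241_at KLF15-null hearts had 5.63, 5.57 and 5.41, against 6.81, 6.93, 7.07 and 6.96 in WT hearts, a difference of -1.40 (SE 0.09, adjusted p = 3.64e-06). Each separated the genotypes completely, the first 2 upward and the third downward, and the brightest and 1451241_at differed from each other by 2.23 (SE 0.17, adjusted p = 5.03e-06). Lamb2, the β2 chain, had 9.07, 8.14 and 9.13 in KLF15-null hearts, against 9.0, 9.0, 9.35 and 9.0 in WT hearts (-0.31, adjusted p = 0.288). Lamb3, a β chain of epithelial laminin, had 5.17, 5.25 and 5.41 in KLF15-null hearts, against 6.18, 6.36, 6.22 and 6.14 in WT hearts (-0.95, adjusted p = 2.60e-05), with all KLF15-null values below the filter level. Its partner Lama3 differed by -0.29 (adjusted p = 0.0568), and passed the threshold without WT heart 2 (-0.35, adjusted p = 0.0407) or KLF15-null heart 2 (-0.37, adjusted p = 0.0237).

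**Figure D3:**
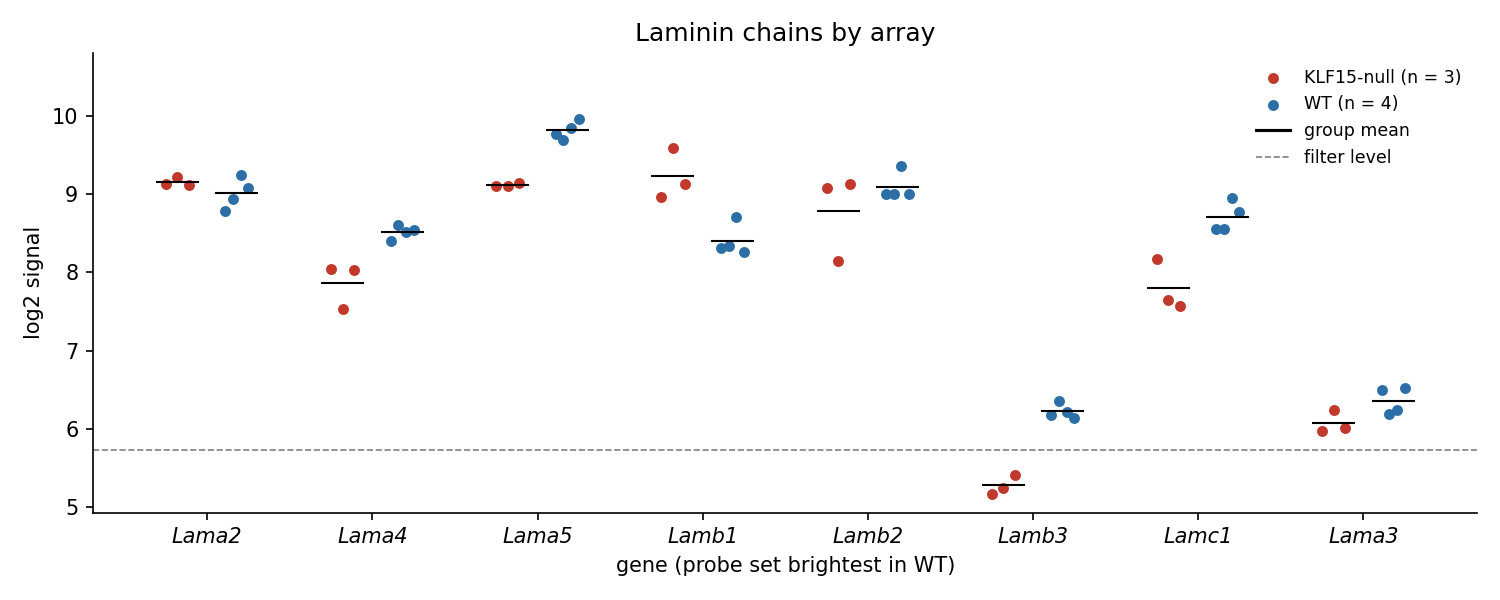
Log2 signal (vertical axis) of the 8 laminin genes bright enough to be tested, on the probe set brightest in WT, in the 3 KLF15-null (red) and 4 WT (blue) hearts, with group means as black lines and the filter level of 5.74 dashed. KLF15-null points lie below all WT points for Lama4, Lama5, Lamb3 and Lamc1 and above them for Lamb1.

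Of 36 collagen genes 25 were bright enough, with 5 higher, 2 lower and 18 that did not pass. Over all genes tested 25.3% were higher, 21.2% lower and 46.5% called in either direction. No collagen gene was called with a difference of 1 or more on the log2 scale, which 5.94% of all genes tested reached upward and 4.2% downward. The median difference was -0.04. Of the 7 calls 4 were in type IV, the basement membrane collagen. There 3 of the 5 bright genes were higher and 1 lower, too few genes to set against the share over all genes. Col4a1 had 11.53, 11.42 and 11.37 in KLF15-null hearts, against 10.83, 10.73, 11.16 and 11.03 in WT hearts. The values did not overlap, with a difference of 0.50 (SE 0.13, adjusted p = 0.00793). Its partner Col4a2, the neighbouring gene on the opposite strand, had 11.70, 10.97 and 11.21 in KLF15-null hearts, against 10.62, 10.66, 10.98 and 10.94 in WT hearts (0.49, SE 0.18, adjusted p = 0.0452), with KLF15-null heart 2 inside the WT range. The shift between both chains was 0.02 (exact permutation p = 0.886).

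The type IV rise depended on array scaling and on the probe set. After quantile normalization Col4a1 and Col4a2 each differed by 0.09, and after cyclic loess normalization by 0.20 and 0.19, none past the threshold. On the second probe set of Col4a1 KLF15-null hearts had 10.19, 10.09 and 10.35, against 10.38, 10.11, 10.56 and 10.55 in WT hearts (-0.19, adjusted p = 0.277), and the 2 probe sets differed from each other by 0.70 (SE 0.13, adjusted p = 0.000834). The Col4a2 call was lost without KLF15-null heart 1 (0.28, adjusted p = 0.15) or 3, and without WT heart 1, 2 or 4.

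Col4a5, the α5(IV) chain, rose by 0.61 (SE 0.11, adjusted p = 0.00117) on its brightest probe set, with 8.87, 9.07 and 8.98 in KLF15-null hearts, against 8.21, 8.46, 8.46 and 8.34 in WT hearts. On its other probe set it stood at -0.99 (adjusted p = 0.00033), with 6.73, 6.08 and 6.61 in KLF15-null hearts, against 7.41, 7.47, 7.51 and 7.45 in WT hearts. Both probe sets separated the genotypes, in opposite directions. Col4a3 differed by -0.25 (adjusted p = 0.0198), close to the filter level in both groups. Col18a1, a basement membrane collagen and the source of endostatin, differed by 0.34 (adjusted p = 0.0185), and its second probe set by 0.04 (adjusted p = 0.702). The calls of Col4a3 (-0.22, adjusted p = 0.0587) and Col18a1 (0.30, adjusted p = 0.056) were lost without KLF15-null heart 1, and that of Col4a3 also after median centring (-0.16, adjusted p = 0.113) and quantile normalization (-0.19, adjusted p = 0.0689).

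Among the fibrillar collagens 7 of 9 were bright enough, with 1 higher and 6 not past the threshold, against 25.3% higher and 21.2% lower over all genes. Col1a1 had 7.56, 7.13 and 7.33 in KLF15-null hearts, against 7.31, 7.53, 7.91 and 7.96 in WT hearts (-0.34, SE 0.17, adjusted p = 0.133). Without WT heart 1 it passed the threshold (-0.46, adjusted p = 0.0461). On its other probe set all KLF15-null values lay above WT (0.45, adjusted p = 0.0229), and both probe sets differed from each other by -0.78 (SE 0.18, adjusted p = 0.00353). Col1a2, the second type I chain, had 8.97, 8.98 and 8.91 in KLF15-null hearts, against 8.69, 8.98, 9.62 and 9.53 in WT hearts (-0.25, adjusted p = 0.354). The 3 KLF15-null values lay within the WT range, with none above WT hearts 2, 3 and 4. Col3a1, the type III chain, had 10.71, 10.75 and 10.22 in KLF15-null hearts, against 9.71, 9.91, 10.93 and 10.70 in WT hearts (0.24, SE 0.29, adjusted p = 0.51).

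Col5a2, which joins type I and III fibrils as they form, was the fibrillar chain that rose. It had 8.62, 8.82 and 8.41 in KLF15-null hearts, against 7.32, 7.52, 8.33 and 8.24 in WT hearts. The groups did not overlap (0.76, SE 0.24, adjusted p = 0.026). Its second probe set differed by 0.69 (adjusted p = 0.0069), with a WT mean of 5.71, below the filter level, so its signal in KLF15-null hearts brought it into the test. The call was lost on leaving out WT heart 1 or 2 or KLF15-null heart 1 or 2, with adjusted p between 0.0586 and 0.0738. Its partner Col5a1 had 8.0, 7.83 and 7.71 in KLF15-null hearts, against 7.80, 8.0, 8.0 and 8.14 in WT hearts (-0.14, adjusted p = 0.348). The shift between both type V chains was -0.90 (exact permutation p = 0.0571, adjusted p = 0.0747), and that between the type I chains -0.09 (exact permutation p = 0.571).

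The type VI chains, which form a beaded network around muscle cells, were not past the threshold. Col6a1 had 8.98, 9.06 and 8.70 in KLF15-null hearts, against 8.89, 8.94, 9.26 and 9.16 in WT hearts (-0.15, adjusted p = 0.386). Col6a2 had 10.19, 10.52 and 9.99 in KLF15-null hearts, against 9.58, 9.72, 10.30 and 10.06 in WT hearts (0.31, adjusted p = 0.205). Col6a1 and Col6a2 shifted against each other by -0.46 (exact permutation p = 0.0286, adjusted p = 0.0405), a call lost after quantile normalization (-0.31, exact permutation p = 0.0571, adjusted p = 0.0747). Col6a3 differed by -0.04 (adjusted p = 0.893). Col14a1, a collagen that sits on fibril surfaces, was lower (-0.68, SE 0.19, adjusted p = 0.0125), with 6.15, 6.92 and 6.46 in KLF15-null hearts, against 6.92, 7.08, 7.28 and 7.47 in WT hearts, and its second probe set differed by -0.06 (adjusted p = 0.725). The 18 collagen genes not past the threshold had differences between -0.34 and 0.35.

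Most of the fibrillar and type VI chains varied widely within WT hearts. Over the 10 tested, the median SD was 0.21 in KLF15-null and 0.32 in WT hearts, against 0.17 in KLF15-null and 0.11 in WT hearts over all genes tested. Col5a3 (WT SD 0.05), Col2a1 (WT SD 0.12), Col5a1 (WT SD 0.14) and Col6a1 (WT SD 0.18) did not share the wide WT spread. The 12 fibroblast markers, which share no gene with the chains, had mean log2 signals of 8.98, 9.01 and 8.91 in KLF15-null hearts and of 8.63, 8.91, 9.38 and 9.22 in WT hearts. WT hearts 3 and 4 were the highest for the markers and for Col1a1, Col1a2, Col3a1, Col5a2, Col6a1, Col6a2 and Col6a3 within WT. Of these markers 4 stood higher, 3 lower and 5 in neither direction: Dcn (decorin) differed by -1.25, Lum (lumican) by -1.38, Vim (vimentin) by 1.04 and the collagen receptor gene Ddr2 by -0.89. The shares over all genes tested were 25.3% higher and 21.2% lower. The part of the fibroblast markers in the collagen values was not tested.

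**Figure D4:**
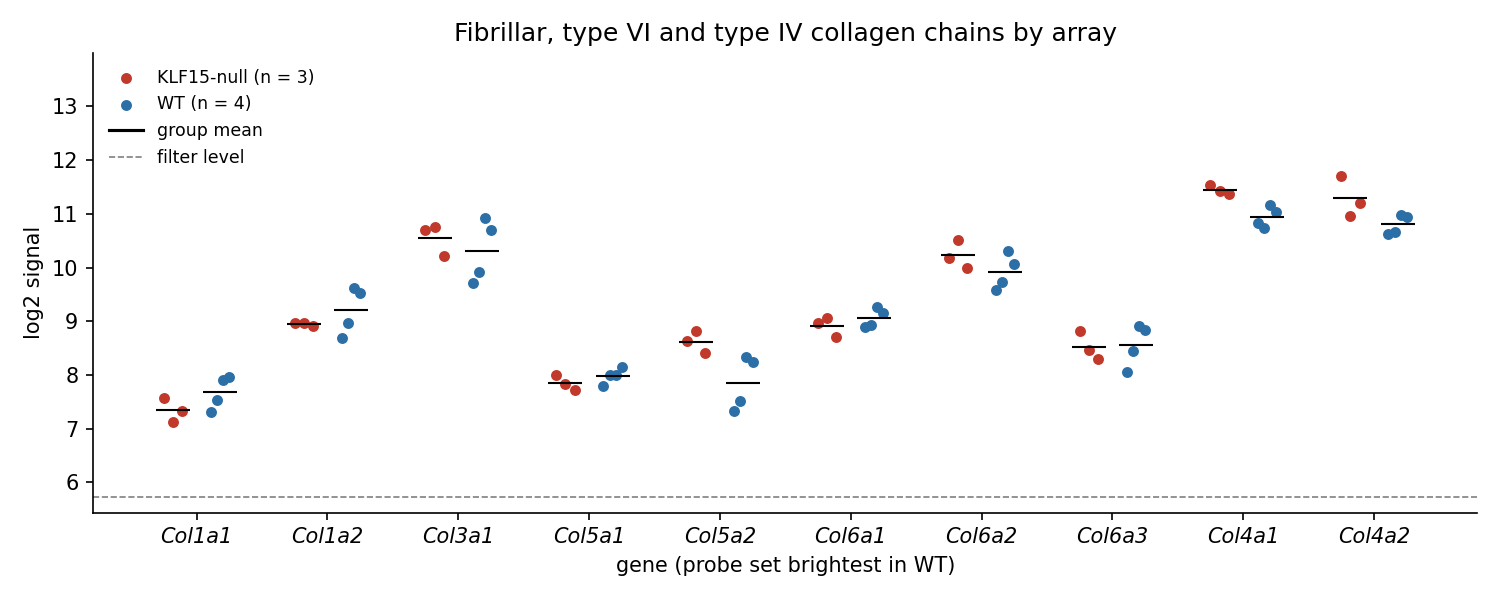
Log2 signal (vertical axis) of type I, III, V, VI and IV collagen chain genes, on the probe set brightest in WT, in the 3 KLF15-null (red) and 4 WT (blue) hearts, with group means as black lines and the filter level of 5.74 dashed. For Col1a2 and Col3a1 the KLF15-null points lie within the WT range, and for Col4a1 and Col5a2 they lie above it.

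Probe sets of the same gene often disagreed. In 23 pairs of probe sets of 17 of these genes, the difference between genotypes was unequal in 15 pairs (limma on the per-array difference between the probe sets), and the sign agreed in 13. Over all genes of the table with more than 1 bright probe set 67.4% of 4044 pairs were unequal, so the share among these genes lies near that of the whole table. Both pairs of Itgb1 and those of Lama5, Col5a2, Col3a1 and Col1a2 did not pass that test.

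**Figure D5:**
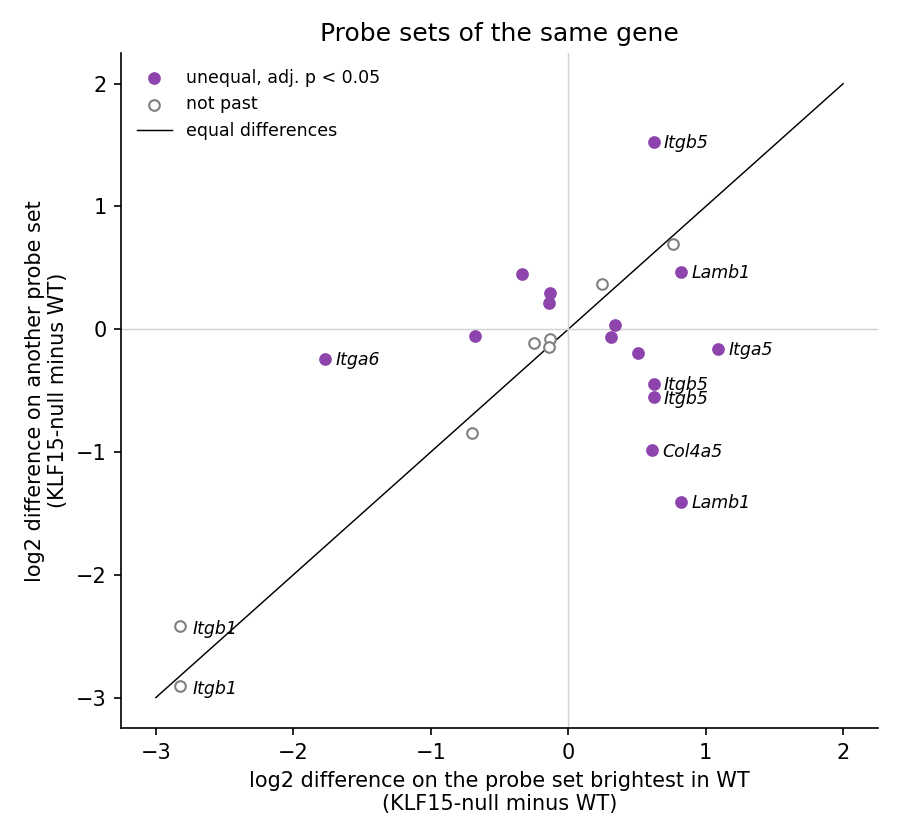
Difference in log2 signal (KLF15-null minus WT) on the probe set brightest in WT (horizontal axis) against that on another bright probe set of the same gene (vertical axis), for 23 pairs, with the line of equal differences. Filled points are the 15 unequal pairs, among them Lamb1, Col4a5, Itga5, Itga6 and Itgb5, while both Itgb1 pairs lie near the line.

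Genes that work with these chains were counted from lists, on the same rule for probe sets. Of the enzymes that modify and process collagen 19 of 22 were bright enough, with 7 lower, 2 higher and 10 not past the threshold (median -0.18). Plod2, a lysyl hydroxylase, fell by 1.26 on the log2 scale, its relative Plod1 by 0.70 and Pcolce2 by 0.63, while Pcolce, an enhancer of procollagen processing, rose by 0.92. Of the metalloproteinases and their inhibitors 14 of 19 were bright enough, with 4 higher, 3 lower and 7 not past the threshold (median 0.02). Timp1, a metalloproteinase inhibitor, rose by 3.60 and Mmp3 (stromelysin 1) by 2.70, though the WT mean of Mmp3, 5.05, lay below the filter level, while the inhibitor gene Timp2 fell by 1.25. Of the basement membrane partners 9 of 14 were bright enough, with 3 lower, 0 higher and 6 not past the threshold (median 0.01). Fbln1 (fibulin 1) fell by 2.47, Sparcl1 by 1.30 and Hspg2 (perlecan) by 0.37, and Nid1 (nidogen 1), which links laminin γ1 to type IV collagen, differed by 0.37 (adjusted p = 0.132).

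Of the dystroglycan complex and other matrix receptors outside the integrins 22 of 23 were bright enough, with 8 lower, 4 higher and 10 not past the threshold (median -0.04). Sgca (α-sarcoglycan) fell by 0.97 and the collagen receptor gene Ddr2 by 0.89, while Cd44, the hyaluronan receptor, rose by 1.67 and the collagen receptor gene Ddr1 by 1.50 on an _x_at probe set. Of the cytoplasmic adaptors and kinases of integrins 33 of 35 were bright enough, with 10 higher, 10 lower and 13 not past the threshold (median -0.09). Tns1 (tensin 1) fell by 2.18 and Lims2, a partner of integrin-linked kinase, by 0.93. Fermt3, the kindlin of blood cells, rose by 2.58 with a WT mean of 5.46, below the filter level, and Pxn (paxillin) by 1.28. Of the integrin ligands outside these families 15 of 20 were bright enough, with 7 higher, 3 lower and 5 not past the threshold (median 0.54). Icam1, the ligand of β2 integrins, rose by 2.02, Thbs4 (thrombospondin 4) by 1.81 and Ccn2 (connective tissue growth factor) by 1.64, while Vtn (vitronectin), the ligand of αv integrins, fell by 0.93. Over all genes 25.3% were higher and 21.2% lower.

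Other cell types were counted in the same way. Of 12 smooth muscle and pericyte markers 1 was higher and 2 lower, with means of 8.74 to 8.92 in KLF15-null and 8.75 to 9.07 in WT hearts. Of 13 of 14 macrophage and monocyte markers bright enough 4 were higher and 2 lower (7.50 to 7.79 in KLF15-null and 7.08 to 7.71 in WT hearts), of 6 of 9 neutrophil markers 2 higher and 0 lower (6.44 to 6.52 in KLF15-null and 5.93 to 6.25 in WT hearts), of 4 of 11 lymphocyte markers 0 higher and 1 lower, and of 6 of 7 platelet markers 3 higher and 0 lower (6.49 to 6.86 in KLF15-null and 6.21 to 6.32 in WT hearts). The median difference of the tested markers was 0.31 for macrophages and monocytes, -0.04 for neutrophils and 0.49 for platelets. It was -0.03 over all 9 neutrophil and -0.11 over all 7 platelet markers. In 7 of the 9 neutrophil markers the groups overlapped. Of the 4 of 5 Schwann cell markers bright enough 1 was higher. The shares over all genes tested were 25.3% higher and 21.2% lower. None was called of the 1 of 4 adipocyte, 4 of 9 skeletal muscle and 3 of 8 cartilage and bone markers that were bright enough. The skeletal muscle mean was 6.63 in KLF15-null heart 1, which was also the highest for Itga5 and Itga7, against 5.91 and 5.96 in KLF15-null hearts 2 and 3 and 5.86 to 6.07 in WT hearts. Its part in those values was not tested. In addition, all 5 mesothelium markers lay below the filter level.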

How the data were processed

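Per the labels' protocols, Trizol RNA of 3 KLF15-null and 4 WT hearts was biotin-labelled for Affymetrix 3' arrays. The authors deposited 1 log2 value per probe set, as the range of 3.20 to 14.28 shows. Per the submitters' processing notes GCOS was used; the sources used here give neither its role nor the summarization or scaling. The same value stood on 2 or more arrays in 47.3% of the 22626 probe sets. No columns were left unmapped.

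Symbols came from the platform annotation, checked by Entrez number against GRCm38.p6. Limma 3.58.1 in R 4.3.3 compared KLF15-null with WT, with an intensity trend, no covariate and Benjamini-Hochberg adjustment over the 13576 probe sets at or above the 40th percentile of the 7-array mean; 3637 were higher (26.8%) and 3235 lower (23.8%). The procedure was tested on simulated data. All members could be named, and from each list up to 4 genes by smallest p. The members and lists were chosen with earlier results of these data known.

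Same-numbered arrays correlated at -0.11, 0.00 and 0.19 in their deviations from group means. With so few arrays these values cannot decide whether same numbers pair arrays, and the labels do not say. Alternatives were other filters, scalings, variance models and probe set choices, and leaving out each array.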

Additional observations from a re-analysis of the deposited data

Results flagged for a closer look

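Among the 50 genes tested, 4 had a WT array whose gap to the nearest other was beyond Dixon's 95% critical value for 4 arrays, and chance gives about 1 in 20. For Lamb2, WT heart 3 stood at 9.35 and the other 3 shared the value 9.0, a gap of 1 of the range. For Col16a1, WT heart 4 stood at 6.63 and the other 3 at 6.53, a gap of 1 of the range. For Itgbl1, WT heart 2 stood at 5.45 and the other 3 at 5.80, a gap of 1 of the range. For Itgax, WT heart 3 stood at 6.08, with a gap of 0.917 of the range. None of these 4 genes passed the threshold between genotypes. In the first 3 the other WT arrays held identical values, and 47.3% of all probe sets had the same deposited value on 2 or more arrays.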

How the results depend on the processing

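Of 894 values of single genes under the alternatives, 810 kept their direction and their side of the threshold. Itgb1, Itgav, Itgb2, Lama4, Lama5, Lamb3 and Lamc1 did so under every alternative run for them. Over leaving out each array, collagen calls ran from 2 to 5 higher and from 2 to 3 lower, against 5 and 2. They were 3 higher without WT replicate 1 or 2 and 2 higher without KLF15-null replicate 1. After quantile normalization 3 were higher and 1 lower, after cyclic loess 3 higher, and for probe sets averaged per gene 2 higher and 1 lower. Lower collagen calls were 1 with the 60th percentile filter, median centring, the replicate block or gene-specific probe sets, and 5 with array weights, whose fit did not fully converge. With either choice of probe sets, gene-specific or averaged, laminin calls had 0 higher in place of 1. With the replicate block the calls of Col4a2 (adjusted p = 0.0675) and Col4a3 (adjusted p = 0.0625) were lost, and no other call among these genes. The pairs of probe sets with unequal differences were 4214 (26 among these genes) without a filter and 1722 with the stricter one, against 2724 and 15, with more or fewer pairs tested. Of the chain pairs 12 also passed after median centring and with probe sets brightest over the 7 arrays, 11 after cyclic loess normalization or with gene-specific probe sets, and 10 after quantile normalization. The Lamb1 shift against Lamc1 passed in opposite directions, at 1.73 on the WT-brightest and -0.49 on gene-specific probe sets (exact permutation p = 0.0286 for each). For probe sets averaged per gene 0 passed, since 8 of 16 reached the smallest p, too few after adjustment; leaving out an array was not run for chain pairs, since the smallest p would be 0.0667 or 0.1.

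Signs turned as follows, and the cause was not tested. With the gene-specific probe set brightest in WT, Lamb1 stood at -1.40, Itgb5 at -0.55, Itga5 at -0.16 and Itga3 at 0.22. All but Itga5 were past the threshold. The other gene-specific probe set of Lamb1 (0.47) and that of Itga3 (-0.15) did not turn. For probe sets averaged per gene Lamb1 stood at -0.04, Col4a5 at -0.19, Col1a1 at 0.05, Col5a1 at 0.03 and Col9a1 at 0.03. Col4a5 and Lamb1 were past it before averaging only. Sign turns after other scalings, with array weights or the replicate block, and on leaving out an array come next. The genes of those turns passed the threshold in neither setting, apart from Itga7 without KLF15-null replicate 1. After median centring Col16a1, Col4a6 and Col6a3 stood at 0.05, 0.07 and 0.05; after quantile normalization Col16a1, Col3a1 and Col4a6 at 0.04, -0.08 and 0.03; after cyclic loess at 0.01, -0.01 and 0.01. With array weights Col8a1, Itgax and Lamb2 stood at -0.04, 0.00 and 0.02, and with the replicate block Col6a3 at 0.05. Over leaving out each array in turn Col6a3 ran from -0.21 to 0.08, Col8a1 from -0.10 to 0.17, Col7a1 from -0.01 to 0.14, Itga7 from -0.53 to 0.15 and Lamb2 from -0.48 to 0.01. For probe sets averaged per gene Itga6 stood at -1.01, Itga5 at 0.47, Lama4 at -0.37 and Lamc1 at -0.58, all past the threshold, while Itgb5 (0.29), Col14a1 (-0.37), Col18a1 (0.19) and Col4a1 (0.16) no longer were. With array weights Itgb2 stood at 0.73 and Itgb6 at -0.85. The number of arrays limits the precision.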

Other observations

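Within WT hearts, arrays 3 and 4 both lay above arrays 1 and 2 for 13 of the 25 collagen genes tested, 3 of 8 laminin genes and 5 of 17 integrin-named genes, and for 7 of the 9 type I, III, V and VI chains tested, against 17.2% of all 8400 genes tested. This split was chosen after the values were seen. The labels give no batch, date or litter.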
